A study of Mus musculus with 6 samples.

Results

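The genes described here are 10 C-type lectin receptor genes of the mouse macrophage: Mrc1, Mgl2, Clec10a, Clec7a, Clec4n, Clec4d, Clec4e, Clec12a, Clec4a2 and Clec5a. Each was taken as the row of the expression table that carries its symbol, which gave 10 of 55487 gene rows, and all 10 were among the 14478 genes that passed the filter on low counts. The series measured polyadenylated RNA in macrophages grown from the bone marrow of female BALB/c mice aged 6 to 12 weeks, of genotype WT (wild type). The marrow cells had grown for 8 days in medium holding 20% conditioned medium of L929 fibroblasts, a cell line that secretes macrophage growth factor, and all of them had then received the cytokines IL-4 and IL-13, 10 ng/mL of each over 24 hours, which polarize macrophages toward the alternatively activated (M2) state. The NP group (3 libraries) then received nanoparticles at 200 µg/mL for 24 hours, and the PBS group (3 libraries) received phosphate-buffered saline, the vehicle. The series title names poly(lactide-co-glycolide), a biodegradable polyester, and the labels give the treatment of the NP libraries as PEMA without explaining it. The comparison asks which genes respond to particle treatment once macrophages are in the M2 state. The labels do not say whether the libraries came from separate cultures or animals, or whether marrow was pooled, so the p-values refer to the spread among these 6 libraries, and part of that spread may be technical.

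C-type lectin receptors are membrane proteins that recognise sugars, lipids and other ligands on microbes, dead cells and host glycoproteins. Some take up what they bind, some activate the cell through the kinase Syk and the adaptor Card9, either through a signalling motif of their own or through a partner chain such as Fcer1g, and some carry an inhibitory motif that recruits phosphatases. Macrophages use them in clearance and in sensing fungi and mycobacteria, and the mannose receptor and the macrophage galactose-type lectins are standard markers of IL-4-polarized macrophages.

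Of the 10 receptor genes, 5 fell and 1 rose in NP macrophages. The endocytic lectins Mrc1, Mgl2 and Clec10a stood at 0.402, 0.398 and 0.35 times their PBS level. The inhibitory receptor gene Clec12a stood at 0.612 times and its inhibitory relative Clec4a2 at 0.831 times. Clec4d, an activating receptor gene, was 1.37 times as high, and Clec7a, Clec4n, Clec4e and Clec5a, whose products are activating receptors too, did not pass the test. Calls rest on limma voom across all 14478 tested genes with Benjamini-Hochberg adjusted p under 0.05, and log2 fold changes are NP minus PBS.

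The 5 lower calls among 10 stand beside 21.4% of all tested genes called lower, the 1 higher call beside 19.8% called higher, and the 6 calls in either direction beside 41.2%. The groups did not overlap for 6 of the 10, which is near the 53.3% seen over all tested genes. The median log2 fold change was -0.22 over the 10 genes and 0.00 over all tested genes. A fall of at least 2-fold was called for 3 of the 10 receptor genes and for 2.67% of all tested genes.

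Total counts ran from 60702163 to 69450411 in NP libraries and from 41974957 to 56265590 in PBS libraries, and the receptor genes held between 300 counts (Clec10a, NP 3) and 66071 counts (Mrc1, PBS 3) in a library. The 10 macrophage markers summed to 9395 to 10532 CPM (counts scaled to the library size) in NP libraries and to 11956 to 12360 CPM in PBS libraries. Lyz2 made up most of that sum, at 6738 ± 387 CPM in NP, against 8330.3 ± 167 CPM in PBS, with Cd68 next at 1794 ± 56.7 CPM in NP, against 1632 ± 59.5 CPM in PBS, while Marco had 4 counts over the NP and 0 over the PBS libraries. Some of the listed markers of other cells were at 0 in every library: Ly6c2 and Plac8 of monocytes, Ly6g, Camp and Retnlg of neutrophils, Cpa3, Mcpt8 and Fcer1a of mast cells and basophils, and Ncr1 of natural killer cells, a kind of lymphocyte. Others on these lists were present. Spn of monocytes averaged 40.5 CPM in NP and 87.9 CPM in PBS. S100a8 of neutrophils had 158 counts over the NP and 79 over the PBS libraries. Cd3e of lymphocytes had 0 counts over the NP and 90 over the PBS libraries. Nearly all of these were in PBS 2 and PBS 3, with 1, 55 and 34 counts in PBS 1 to 3. Spn, S100a8 and Cd3e were named here after their values were seen. The summed markers of neutrophils, mast cells and basophils, lymphocytes and fibroblasts reached at most 1.61, 0.23, 0.0819 and 1.253 CPM in an NP library and 1.45, 0.5, 1.72 and 1.45 CPM in a PBS library. PBS 2 and PBS 3 stood apart by summed olfactory and vomeronasal receptor counts, which should be near 0 in macrophages: 136 and 150 CPM, against 9.62 to 12.4 CPM in the 3 NP libraries and PBS 1. When PBS 1 alone stood for the vehicle, the receptor genes still gave 5 lower calls and 1 higher call.

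**Figure D1:**
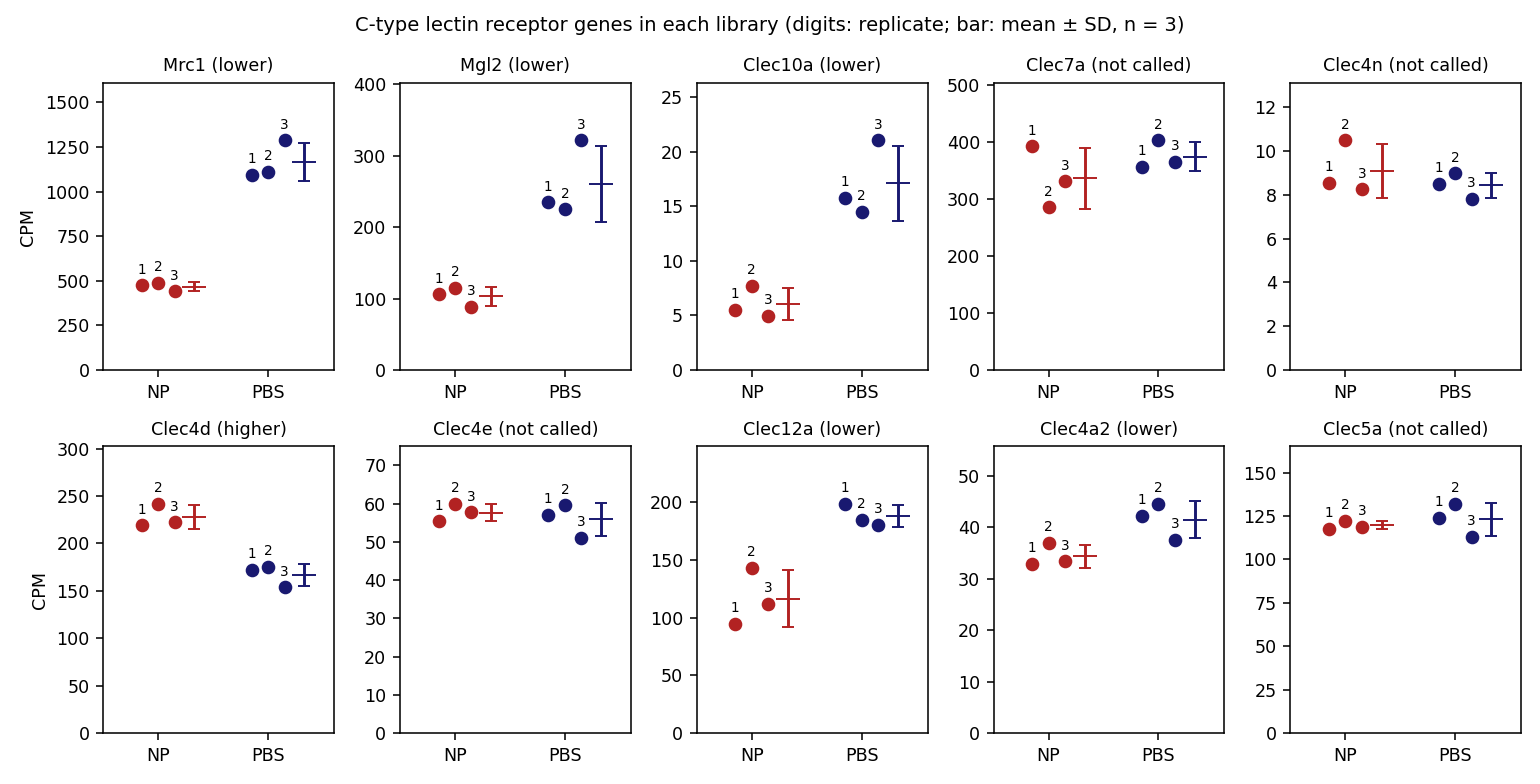
Normalized expression (CPM, linear axes from 0) of the 10 receptor genes in each library, NP left of PBS, with digits for the replicate and bars for the mean ± SD (n = 3 each). The NP points of Mrc1 lie between 440.4 and 487 CPM, below the PBS points at 1095 to 1287 CPM, and those of Clec4d, between 219 and 242 CPM, lie above the PBS points at 154 to 175 CPM.

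Mrc1 encodes the mannose receptor (CD206), an endocytic receptor for mannose, fucose and N-acetylglucosamine on glycoproteins and microbes. It was measured at 475, 487 and 440.4 CPM in NP 1 to 3, against 1095, 1112 and 1287 CPM in PBS 1 to 3. Every NP library was below every PBS library by a wide gap. The means were 467 ± 24.1 CPM in NP and 1165 ± 106 CPM in PBS (SD, n = 3 each), a log2 fold change of -1.32 (SE 0.06, 95% interval -1.46 to -1.18, limma voom adjusted p 2.34e-06). Ranked from the lowest log2 fold change, Mrc1 was 217th of 14478 tested genes. The gene (ENSMUSG00000026712) lies at chr2:14229392-14332057 on the plus strand of GRCm38, and the microRNA gene Mir511 lies within it on the same strand without overlapping an exon.

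Mgl2 and Clec10a encode the macrophage galactose-type lectins CD301b and CD301a, which bind galactose and N-acetylgalactosamine. Mgl2 had 106, 115 and 88.2 CPM in NP 1 to 3, against 234.5, 225 and 321 CPM in PBS 1 to 3. Clec10a had 5.54, 7.71 and 4.96 CPM in NP 1 to 3, against 15.8, 14.5 and 21.1 CPM in PBS 1 to 3. For both genes the NP libraries lay below the PBS libraries without overlap, and in both NP 2 was the highest of its group and PBS 3 the highest of its own. The fall was -1.33 on the log2 scale for Mgl2 (SE 0.13, 95% interval -1.62 to -1.03, limma adjusted p 8.11e-05), with means of 103 ± 13.5 CPM in NP and 260.2 ± 53.1 CPM in PBS. For Clec10a it was -1.51 (SE 0.18, 95% interval -1.91 to -1.12, limma adjusted p 0.000184), with means of 6.07 ± 1.45 CPM in NP and 17.1 ± 3.46 CPM in PBS. Clec10a therefore had the lowest log2 fold change of the 10 genes and was 142nd from the lowest of 14478. Its interval held the estimates of Mgl2 and Mrc1, so the order of these lectins is not settled.

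The Mgl2 and Clec10a genes are neighbours on chromosome 11 (GRCm38, plus strand): Mgl2 (ENSMUSG00000040950) at chr11:70130329-70137550 and Clec10a (ENSMUSG00000000318) at chr11:70156197-70170834, with starts 25.9 kb apart. Reads can be split between them only in small part, since 33 of 2358 distinct runs of 151 bases in the Mgl2 transcripts (1.4%) also occur in Clec10a, and 33 of 3655 in the Clec10a transcripts (0.903%) in Mgl2. The ratio of Clec10a to Mgl2 in CPM was 0.0524, 0.0672 and 0.0563 in NP libraries, against 0.0673, 0.0647 and 0.0656 in PBS libraries. These ranges overlapped, with a mean log2 difference of -0.18 (two-sided exact permutation p 0.3, 0.375 after adjustment over 5 gene pairs). For Mrc1 over Mgl2 the ratios were 4.49, 4.25 and 4.99 in NP, against 4.67, 4.95 and 4.01 in PBS libraries, a mean log2 difference of 0.01 (two-sided exact permutation p 0.9, adjusted 0.9). With 3 libraries a group, 0.1 is the smallest p this test can give.

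Several macrophage and monocyte markers were lower in the NP group, as these 3 lectins were. Of 9 tested macrophage markers 7 were lower and 1, Cd68, was higher, beside 21.4% and 19.8% of all tested genes, with summed levels of 9395 to 10532 CPM in NP and 11956 to 12360 CPM in PBS. All 3 tested monocyte markers (Ccr2, Cx3cr1 and Spn) of 6 listed were lower, with sums of 38.6 to 67.0 CPM in NP, against 110.0 to 116 CPM in PBS, and Ly6c2 and Plac8 were at 0. Some dendritic cell markers went the other way, and 3 of 5 tested markers of 8 listed were higher. The summed list stood at 61.1 to 64.6 CPM in NP libraries and at 33.1 to 37.6 CPM in PBS libraries. Nearly all of that sum was Cd24a, at 60.0 ± 1.91 CPM in NP, against 31.9 ± 1.05 CPM in PBS. The other higher calls were Itgae, with 86 counts over the NP and 25 over the PBS libraries, and Ccr7, with 85 and 1. Flt3, which defines dendritic cell progenitors and conventional dendritic cells, had 12 counts in all NP and 15 in all PBS libraries. Zbtb46 of the same list had 363 counts over the NP and 329 over the PBS libraries and was not called. Xcr1 was not called either (0.35, limma adjusted p 0.435). Siglech, too low to test, had 1 count over the NP and 34 over the PBS libraries, at 0, 15 and 19 in PBS 1 to 3. Dpp4, also too low, had 27 counts over the NP and 26 over the PBS libraries. Xcr1, Siglech and Dpp4 were named after their values were seen. The part of these markers in the lectin results was not tested. In bulk RNA, fewer cells that express a gene and less of its RNA per cell cannot be told apart.

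Clec4d encodes MCL (Dectin-3), a receptor for mycobacterial glycolipid that associates with Mincle and signals through Fcer1g. Its levels were 219, 242 and 222 CPM in NP 1 to 3, against 172, 175 and 154 CPM in PBS 1 to 3. All 3 NP libraries exceeded all 3 PBS libraries. Means were 228 ± 12.3 CPM in NP, against 167 ± 11.6 CPM in PBS, and the log2 fold change was 0.45 (SE 0.06, 95% interval 0.32 to 0.57, limma adjusted p 0.000246). Clec4d (ENSMUSG00000030144) lies at chr6:123262111-123275265 on the plus strand of GRCm38.

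Clec4e encodes Mincle, the receptor for the mycobacterial glycolipid trehalose dimycolate. It had 55.3, 59.9 and 57.7 CPM in NP 1 to 3, against 57.1, 59.6 and 51.1 CPM in PBS 1 to 3, and the groups overlapped. The log2 fold change was 0.05 (SE 0.06, adjusted p 0.533), and the 95% interval of the fold ran from 0.947 to 1.13. Within a library the ratio of Clec4e to Clec4d was 0.253, 0.248 and 0.259 in NP, against 0.332, 0.34 and 0.332 in PBS. All NP ratios lay below all PBS ratios, a mean log2 difference of -0.40 (two-sided exact permutation p 0.1, the smallest it can give, and 0.25 after adjustment over the 5 pairs). The Clec4e gene (ENSMUSG00000030142, chr6:123281789-123289870, minus strand of GRCm38) has its lower coordinate 19.7 kb from that of Clec4d.

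Clec4n encodes Dectin-2, a receptor for fungal mannans that pairs with Fcer1g. At 8.54, 10.5 and 8.25 CPM in NP 1 to 3, against 8.50, 8.98 and 7.83 CPM in PBS 1 to 3, its groups overlapped. The log2 fold change was 0.10 (SE 0.10, adjusted p 0.444), with a 95% interval of the fold from 0.919 to 1.26. The gene (ENSMUSG00000023349) lies at chr6:123229843-123247021 on the plus strand.

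Clec7a encodes Dectin-1, the phagocytic receptor for fungal beta-glucan, which carries its own Syk-recruiting motif. Levels were 392, 285 and 331 CPM in NP 1 to 3, against 356, 403 and 365 CPM in PBS 1 to 3. NP 1 lay above 2 of the PBS libraries, while NP 2 and NP 3 lay below all 3. The log2 fold change was -0.17 (SE 0.10, adjusted p 0.208) and the 95% interval of the fold ran from 0.766 to 1.04, so neither a fall to 0.766 times nor a small increase lay outside the error. Without NP 1 the value was -0.27 and passed the limma test (adjusted p 0.0343), without NP 2 it was -0.04 (adjusted p 0.713), and without both PBS 2 and NP 2 it was 0.00 (adjusted p 0.998). Clec7a (ENSMUSG00000079293, chr6:129461591-129472779, minus strand) is typed as a polymorphic pseudogene in GENCODE M21.

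Clec5a encodes MDL-1, which signals through the adaptors Tyrobp (DAP12) and Hcst (DAP10). It was the steadiest of the 10 genes among NP libraries, at 118, 122 and 119 CPM in NP 1 to 3, against 124, 132 and 113 CPM in PBS 1 to 3. The NP values fell inside the PBS range. Its log2 fold change was -0.04 (SE 0.05, adjusted p 0.594), with a 95% interval of the fold from 0.9 to 1.06. The gene (ENSMUSG00000029915) lies alone among the 10 at chr6:40574894-40585821 on the minus strand.

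Clec12a encodes MICL, an inhibitory receptor that recognises uric acid crystals from dead cells. Its CPM values were 94.85, 143 and 112 in NP 1 to 3, against 199, 185 and 180.4 in PBS 1 to 3. NP 2 was the highest NP library and still lay below the lowest PBS library. Means were 117 ± 24.4 CPM in NP and 188 ± 9.53 CPM in PBS, with a log2 fold change of -0.71 (SE 0.12, 95% interval -0.98 to -0.44, limma adjusted p 0.00132). Clec12a (ENSMUSG00000053063, chr6:129342691-129365303, plus strand) has its lower coordinate 118.9 kb from that of Clec7a. The ratio of Clec7a to Clec12a was 4.14, 2.00 and 2.96 in NP libraries, against 1.79, 2.18 and 2.02 in PBS libraries. NP 1 and NP 3 were above the PBS range and NP 2 inside it, a mean log2 difference of 0.54 (two-sided exact permutation p 0.3, adjusted 0.375).

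Clec4a2 encodes DCIR, which carries an inhibitory motif in its cytoplasmic tail. It had 32.9, 37.0 and 33.4 CPM in NP 1 to 3, against 42.3, 44.6 and 37.6 CPM in PBS 1 to 3. The groups did not overlap, but NP 2 and PBS 3 nearly met. The log2 fold change was -0.27 (SE 0.07, 95% interval -0.42 to -0.12, limma adjusted p 0.0104), and the call was lost without NP 1 (-0.22, adjusted p 0.0725) and without NP 3 (-0.24, adjusted p 0.0828). Only 13 of 2990 runs of 151 bases in the Clec4a2 transcripts (0.435%) also occur in another gene, Clec4a4. The ratio of Clec4n to Clec4a2 was 0.26, 0.284 and 0.247 in NP libraries, against 0.201, 0.201 and 0.208 in PBS libraries. These ratios did not overlap, with a mean log2 difference of 0.37 (two-sided exact permutation p 0.1, the smallest it can give, adjusted 0.25). Clec4a2 (ENSMUSG00000030148) lies at chr6:123106428-123143999 on the plus strand, where the predicted gene Gm44132 overlaps it on the same strand but at no exon.

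**Figure D2:**
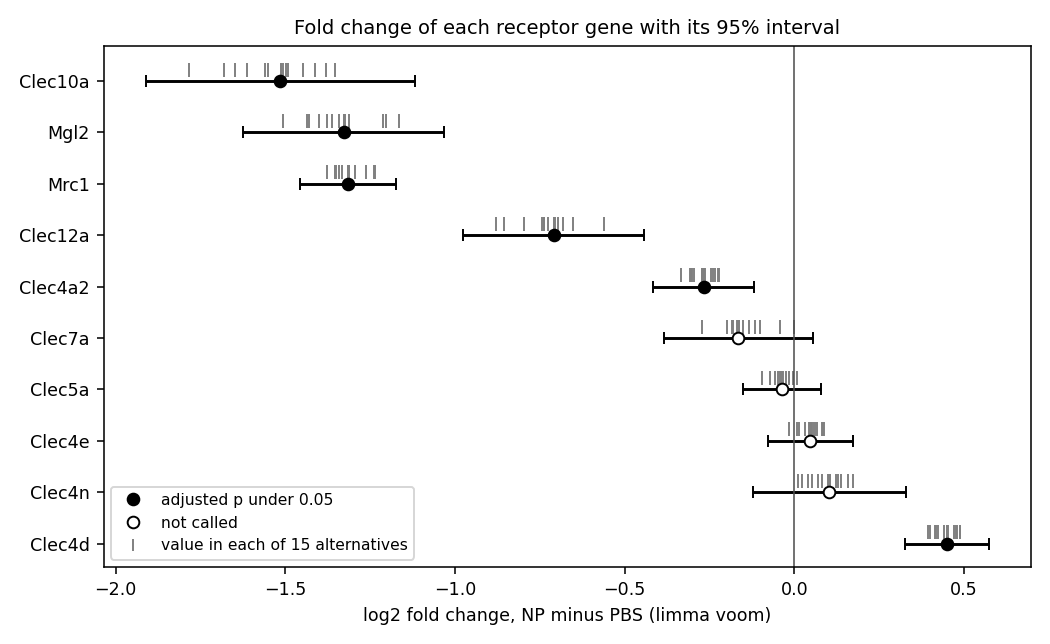
Log2 fold change of each receptor gene, NP minus PBS, from limma voom with its 95% interval. Filled circles mark adjusted p under 0.05, open circles genes not called, and grey ticks the value in each of 15 alternative analyses. The intervals of Clec10a, Mgl2, Mrc1, Clec12a and Clec4a2 lie below 0, that of Clec4d lies above 0, and the ticks of Clec7a spread from -0.27 to 0.00.

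The libraries of a group did not differ in the same way for all 10 genes. NP 2 was the highest NP library for 9 of the 10 genes, Clec7a being the exception, and so for all 5 genes that fell. PBS 3 was the highest PBS library for Mrc1, Mgl2 and Clec10a, and the lowest for 6 of the 7 other genes, where Clec7a again differed. The highest NP library exceeded the lowest by 1.55 times for Clec10a, 1.51 times for Clec12a, 1.38 times for Clec7a and 1.3 times for Mgl2, against 1.04 times for Clec5a. Among PBS libraries the widest ratios were 1.45 for Clec10a and 1.43 for Mgl2.

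Levels of different genes were compared per length, as TPM (counts per length, scaled to the library) computed from the counts and the exonic lengths. These lengths join all annotated exons of a gene, such as 6371 bases for Mrc1 and 1599 for Clec4d. They can exceed the transcripts that were expressed, and the order of genes depends on them. By CPM, which ignores length, Mrc1 was highest in NP too, at 467 CPM, against 336 for Clec7a and 228 for Clec4d. In NP macrophages the order by mean TPM was Clec4d, Clec7a, Mrc1, Mgl2, Clec5a, Clec12a, Clec4a2, Clec4e, Clec4n and Clec10a. In PBS macrophages it was Mrc1, Clec7a, Mgl2, Clec4d, Clec12a, Clec5a, Clec4a2, Clec4e, Clec4n and Clec10a. Mrc1 was thus the third in NP, at 244 ± 10.4 TPM, and first in PBS, at 619.9 ± 50.4 TPM. Clec4d was first in NP, at 473 ± 24.6 TPM, and the fourth in PBS, at 354 ± 27.6 TPM. Clec7a was next to the top in both, at 424 ± 66.7 TPM in NP and 481 ± 32.6 TPM in PBS, and Mgl2 averaged 163 ± 20.0 TPM in NP and 421 ± 81.7 TPM in PBS.

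Some neighbours in this order could not be separated. The library values of Clec4d and Clec7a overlapped in NP, as did those of Clec4a2 and Clec4e. In PBS, Clec7a overlapped with Mgl2, Mgl2 with Clec4d, Clec12a with Clec5a, and Clec4n with Clec10a. At the low end Clec10a stood at 6.96 ± 1.62 TPM in NP and 20.0 ± 3.86 TPM in PBS, and Clec4n at 21.3 ± 2.74 TPM in NP and 20.2 ± 1.52 TPM in PBS. Clec12a averaged 70.1 ± 14.6 TPM in NP and 115 ± 6.84 TPM in PBS, Clec5a 104 ± 2.14 TPM in NP and 109 ± 9.13 TPM in PBS.

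The summed TPM of the 10 genes was 1615, 1599 and 1539 in NP 1 to 3, against 2161, 2212 and 2308 in PBS 1 to 3, so the sum was lower in every NP library. Mrc1 made up 15.2%, 15.8% and 15.1% of it in NP libraries, against 27.2%, 26.8% and 29.4% in PBS libraries. The share of Clec4d was 28.0%, 31.3% and 30.4% in NP, against 17.0%, 16.8% and 14.0% in PBS. Mgl2 contributed 10.3%, 11.3% and 9.21% in NP, against 17.7%, 16.5% and 22.3% in PBS. Shares of a sum are bound to each other, and a smaller Mrc1 alone raises the share of the rest.

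**Figure D3:**
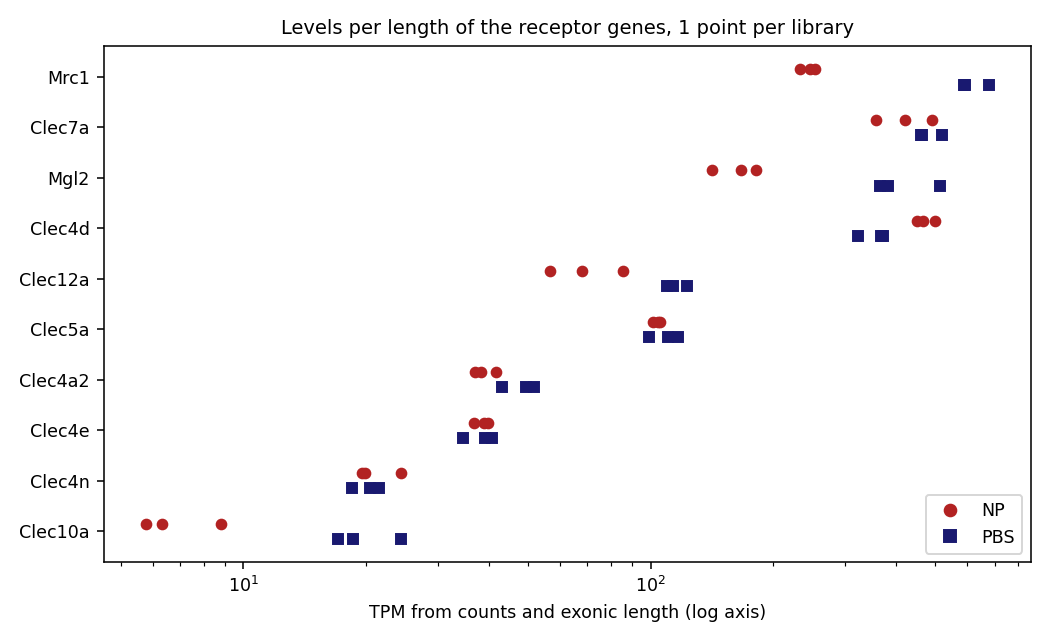
Level per length (TPM, log axis) of the 10 receptor genes, 1 point per library, NP circles above PBS squares. Genes are ordered by their PBS mean: Mrc1 averages 244 TPM in NP and 620 TPM in PBS, Clec4d 473 TPM in NP and 354 TPM in PBS, and the NP points of Clec10a, with a mean of 6.96 TPM, are the lowest of all.

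The promoters of 5 receptor genes are printed here, so that they can be read beside the values above: Mrc1 and Mgl2, which fell together, Clec4d, which rose, and Clec12a and Clec7a, which each hold a match to a searched motif. They are RefSeq sequences on GRCm38.p6, 300 bases each that reach just past the transcript start, 5′ to 3′ on the gene's strand, and positions are counted from that start as 0. Entries existed for 8 of the 10 genes, all but Clec10a and Clec4n. The 4 motifs were searched on both strands, and capitals mark the matches: TTCNNNNGAA, the STAT6 form with a 4-base spacer that IL-4 signalling uses, TGANTCA of AP-1, GAGGAAGT of PU.1 and the E-box CACGTG of MiT factors. No 2 matches overlapped.
Mrc1: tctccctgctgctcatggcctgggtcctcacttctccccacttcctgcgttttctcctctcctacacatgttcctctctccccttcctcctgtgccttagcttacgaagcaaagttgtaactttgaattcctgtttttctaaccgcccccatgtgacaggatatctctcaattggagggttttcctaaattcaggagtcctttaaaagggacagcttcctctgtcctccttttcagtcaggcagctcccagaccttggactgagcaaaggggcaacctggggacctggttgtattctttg
Mgl2: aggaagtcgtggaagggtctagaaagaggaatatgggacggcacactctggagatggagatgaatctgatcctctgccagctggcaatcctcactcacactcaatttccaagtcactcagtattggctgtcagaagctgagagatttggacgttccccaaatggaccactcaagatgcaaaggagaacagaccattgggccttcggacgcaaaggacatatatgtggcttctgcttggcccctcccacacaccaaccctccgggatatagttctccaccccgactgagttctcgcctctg
Clec4d: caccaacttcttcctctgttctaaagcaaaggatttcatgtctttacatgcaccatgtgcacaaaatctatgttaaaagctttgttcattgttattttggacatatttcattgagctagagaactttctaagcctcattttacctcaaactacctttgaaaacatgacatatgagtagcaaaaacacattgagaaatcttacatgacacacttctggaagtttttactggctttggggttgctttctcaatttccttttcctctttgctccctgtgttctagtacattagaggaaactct
Clec12a: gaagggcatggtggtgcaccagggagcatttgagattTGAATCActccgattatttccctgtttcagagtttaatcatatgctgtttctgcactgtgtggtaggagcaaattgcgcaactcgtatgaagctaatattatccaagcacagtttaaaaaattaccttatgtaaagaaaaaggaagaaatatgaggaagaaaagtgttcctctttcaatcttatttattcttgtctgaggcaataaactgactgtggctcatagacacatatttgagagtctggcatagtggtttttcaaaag
Clec7a: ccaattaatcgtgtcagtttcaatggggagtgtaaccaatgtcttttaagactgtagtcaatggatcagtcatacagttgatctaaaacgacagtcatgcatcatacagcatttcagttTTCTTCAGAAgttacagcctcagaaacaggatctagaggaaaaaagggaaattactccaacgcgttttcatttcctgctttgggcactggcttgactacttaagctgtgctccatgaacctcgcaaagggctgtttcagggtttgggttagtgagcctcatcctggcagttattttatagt

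The windows are chr2:14229164-14229463 (plus strand) for Mrc1, chr11:70130107-70130406 (plus) for Mgl2, chr6:123261857-123262156 (plus) for Clec4d, chr6:129349994-129350293 (plus) for Clec12a and chr6:129472730-129473029 (minus) for Clec7a. The RefSeq start of Clec12a lies inside the longer GENCODE gene. None of the 4 motifs was found in the windows of Mrc1, Mgl2, Clec4d and Clec4e. Clec7a, which was not called, held a STAT6 match that begins at position -131 of the printed window. A further Clec7a entry, chr6:129472736-129473035, holds the same match at position -125 from its own start. Clec5a held a STAT6 match at position -98. Clec12a held a match to the letters TGANTCA at position -213, which reads TGAATCA, and Clec4a2 one at position 31, which reads TGACTCA. The search took any base at the N, for these genes and for the share over all promoters below. Over 32817 distinct promoters of 300 bases, 6.94% held the STAT6 form, 7.81% the AP-1 motif, 3.2% the PU.1 motif and 7.15% the E-box. A match is a description of the letters only, and no match says only that they are not in this window.

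Clec4a2, Clec4n, Clec4d and Clec4e lie in the Dectin-2 gene cluster, a run of 9 C-type lectin genes over 368.0 kb of chromosome 6. Of the 9 genes 7 were tested: 3 were lower, 1 was higher and 3 were not called, beside 21.4% lower and 19.8% higher over all tested genes. Clec4a1 and Clec4a3, relatives of Clec4a2 at -184.6 and -153.9 kb from it by their lower coordinates, fell by 0.95 (SE 0.16, adjusted p 0.00124) and 0.67 (SE 0.05, adjusted p 2.63e-05) on the log2 scale in the limma fit. Clec4b1, at -56.5 kb, was not called (-0.16, adjusted p 0.699). The 3 lower genes thus lay on 1 side of the run, and Clec4n, Clec4d and Clec4e, none of them lower, on the other, at 123.4, 155.7 and 175.4 kb. No test of position was made on these 7 genes. Clec4a4, with 13 counts over the NP and 10 over the PBS libraries, and Clec4b2, with 1 count over the NP and 0 over the PBS libraries, were too low to test.

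**Figure D4:**
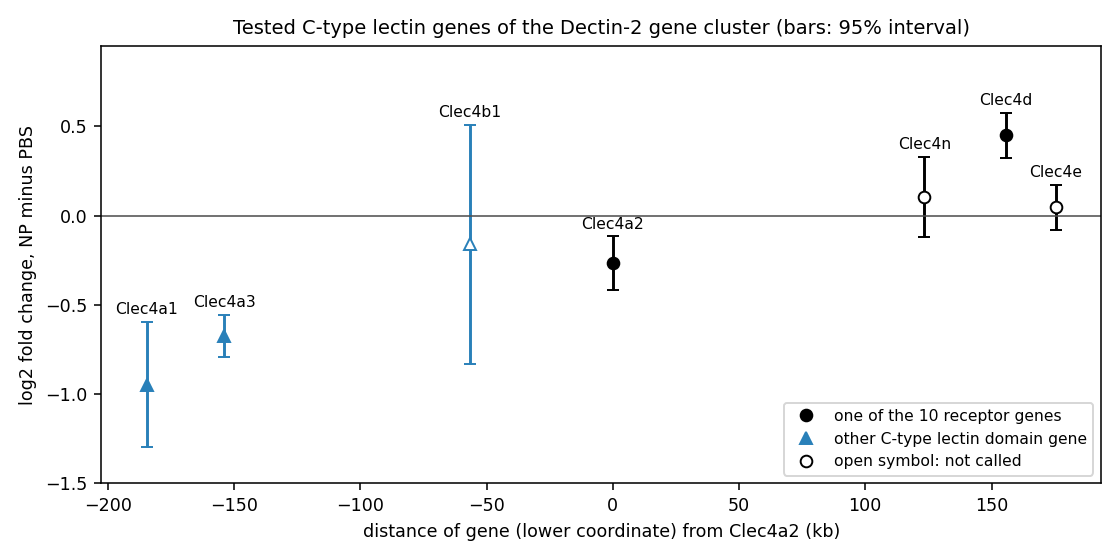
Log2 fold change (NP minus PBS, bars: 95% interval) of the 7 tested genes of the Dectin-2 cluster by the distance of their lower coordinate from that of Clec4a2 (kb). Circles are the receptor genes of the 10, triangles other lectin genes, and open symbols genes not called. Clec4a1, Clec4a3 and Clec4a2 lie below 0 and Clec4d at 155.7 kb lies above 0.

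Other genes with a C-type lectin domain were taken from a list of 50, of which 18 were tested and 32 were too low, 11 of these with 0 counts in every library. Of the 18, 9 were lower, 2 were higher and 7 were not called, beside 21.4% lower and 19.8% higher over all tested genes, with a median log2 fold change of -0.32 beside 0.00 over all tested genes. Ly75 (DEC-205), an endocytic receptor of the mannose receptor family and thus a relative of Mrc1, rose in NP, at 9.64 ± 0.958 CPM in NP, against 3.49 ± 0.53 CPM in PBS (log2 fold change 1.49, SE 0.13, limma adjusted p 4.44e-05). Cd93, a receptor linked to clearance of dying cells, fell to 181 ± 21.5 CPM in NP, against 272 ± 13.2 CPM in PBS (-0.59, adjusted p 0.000291). Asgr2, a subunit of the asialoglycoprotein receptor that binds galactose as Mgl2 and Clec10a do, fell by 2.46 on the log2 scale (adjusted p 0.000905), with only 13 counts over the NP and 58 over the PBS libraries. Thbd (-0.56, adjusted p 0.00131), Cd207 (-1.06, adjusted p 0.00453) and Cd302 (-0.25, adjusted p 0.0178) were lower too, as were Clec4a3 and Clec4a1. Clec2d, the other gene that was higher (0.28, adjusted p 0.0456), was named after its values were seen. The 2 higher calls became 1 in 7 of 15 alternatives. The 9 lower calls became 5 without NP 3 and 5 with PBS 1 as the sole vehicle library. Colec12, a scavenger receptor chosen for naming after its values were seen, was at 405 ± 14.9 CPM in NP, against 411 ± 11.8 CPM in PBS (-0.02, adjusted p 0.66).

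All 38 genes listed for signalling downstream of these receptors were tested, and 18 were lower, 8 were higher and 12 were not called, none by 2-fold. Over all tested genes 21.4% were lower and 19.8% higher, so the share of higher calls was near that background. Their log2 fold changes ran from -0.73 (Pik3cd) to 0.47 (Src), with a median of -0.09. The 18 lower calls became 12 without NP 3 and 13 when PBS 1 alone stood for the vehicle, and the count of higher calls was then 5. The partner chains, named after their values were seen, differed little: Fcer1g, the partner of Clec4n, Clec4d and Clec4e, was at 98.6 ± 8.55 CPM in NP, against 115 ± 6.63 CPM in PBS (-0.22, adjusted p 0.0187). Tyrobp, the partner of Clec5a, was at 299 ± 8.92 CPM in NP, against 326 ± 5.39 CPM in PBS (-0.13, adjusted p 0.0127), and its other partner Hcst was not called (-0.11, adjusted p 0.688). Syk, the kinase that Fcer1g, Tyrobp and Clec7a recruit, rose to 529.6 ± 17.1 CPM in NP, against 448 ± 4.28 CPM in PBS (0.24, adjusted p 0.000408). Of the complex that Syk signalling feeds into, Card9 was lower, at 39.3 ± 1.64 CPM in NP, against 51.3 ± 2.17 CPM in PBS (-0.39, adjusted p 0.00018), Malt1 was higher (0.31, adjusted p 0.000126) and Bcl10, named after its values were seen, was not called (-0.02, adjusted p 0.767).

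Prkcd, the kinase that links Syk to Card9, was lower (-0.28, adjusted p 0.000111), and so was Rel, an NF-kappa-B subunit (-0.42, adjusted p 0.000145), while the subunit gene Rela, named after its values were seen, was higher (0.16, adjusted p 0.0178). Src, a kinase that phosphorylates such receptor motifs, was higher (0.47, adjusted p 0.000139). The 2 named subunits of the phagocyte oxidase, which these receptors trigger, moved in opposite directions in the limma fit. Ncf1 (p47-phox) fell to 542 ± 17.6 CPM in NP, against 839 ± 26.3 CPM in PBS (-0.63, adjusted p 9.34e-06), and Cyba (p22-phox) rose by 0.31 on the log2 scale (adjusted p 6.52e-05). Ptpn6 (SHP-1), a phosphatase that inhibitory motifs such as those of Clec12a and Clec4a2 recruit, was lower (-0.43, adjusted p 0.001) and was named after its values were seen.

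Because Mrc1, Mgl2 and Clec10a are induced by IL-4, 17 genes of the IL-4 receptor pathway were set beside them, and 6 were lower, 5 were higher and 6 were not called, with a median log2 fold change of 0.00. Over all tested genes 21.4% were lower and 19.8% higher. The 5 higher calls became 3 under total count scaling, 3 without the low-count filter and 1 when PBS 1 alone stood for the vehicle. The receptor chain gene Il13ra1 was higher, at 6.62 ± 0.255 CPM in NP, against 4.24 ± 0.213 CPM in PBS (0.64, adjusted p 0.000286). Of the other chain genes, Il4ra was not called (0.11, limma adjusted p 0.14) and Il2rg was higher (0.17, limma adjusted p 0.0348). Il4ra and Il2rg were named after their values were seen. Of the transcription factors that act downstream of IL-4, Irf4 was lower, at 10.7 ± 0.304 CPM in NP, against 16.7 ± 2.56 CPM in PBS (-0.64, adjusted p 8e-04). Klf4 was lower too (-0.36, adjusted p 0.000465). Pparg, named after its values were seen, was not called (0.14, limma adjusted p 0.212), while the coactivator gene Ppargc1b was higher (0.49, adjusted p 0.00518). The kinase genes Jak3 (-0.44, adjusted p 0.000584), Jak2 (-0.22, adjusted p 0.0047) and Tyk2 (-0.17, adjusted p 0.0015) and the feedback inhibitor gene Socs1 (-0.93, adjusted p 0.000949) were lower, while the fourth kinase gene of the family, Jak1, was higher (0.15, adjusted p 0.00823) and was named after its values were seen. Stat6, the transcription factor that IL-4 activates, was at 269.7 ± 5.53 CPM in NP, against 265 ± 4.25 CPM in PBS (0.02, adjusted p 0.581) and was named after its values were seen. These are RNA levels, and the activity of Stat6 is set by phosphorylation, which was not measured.

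**Figure D5:**
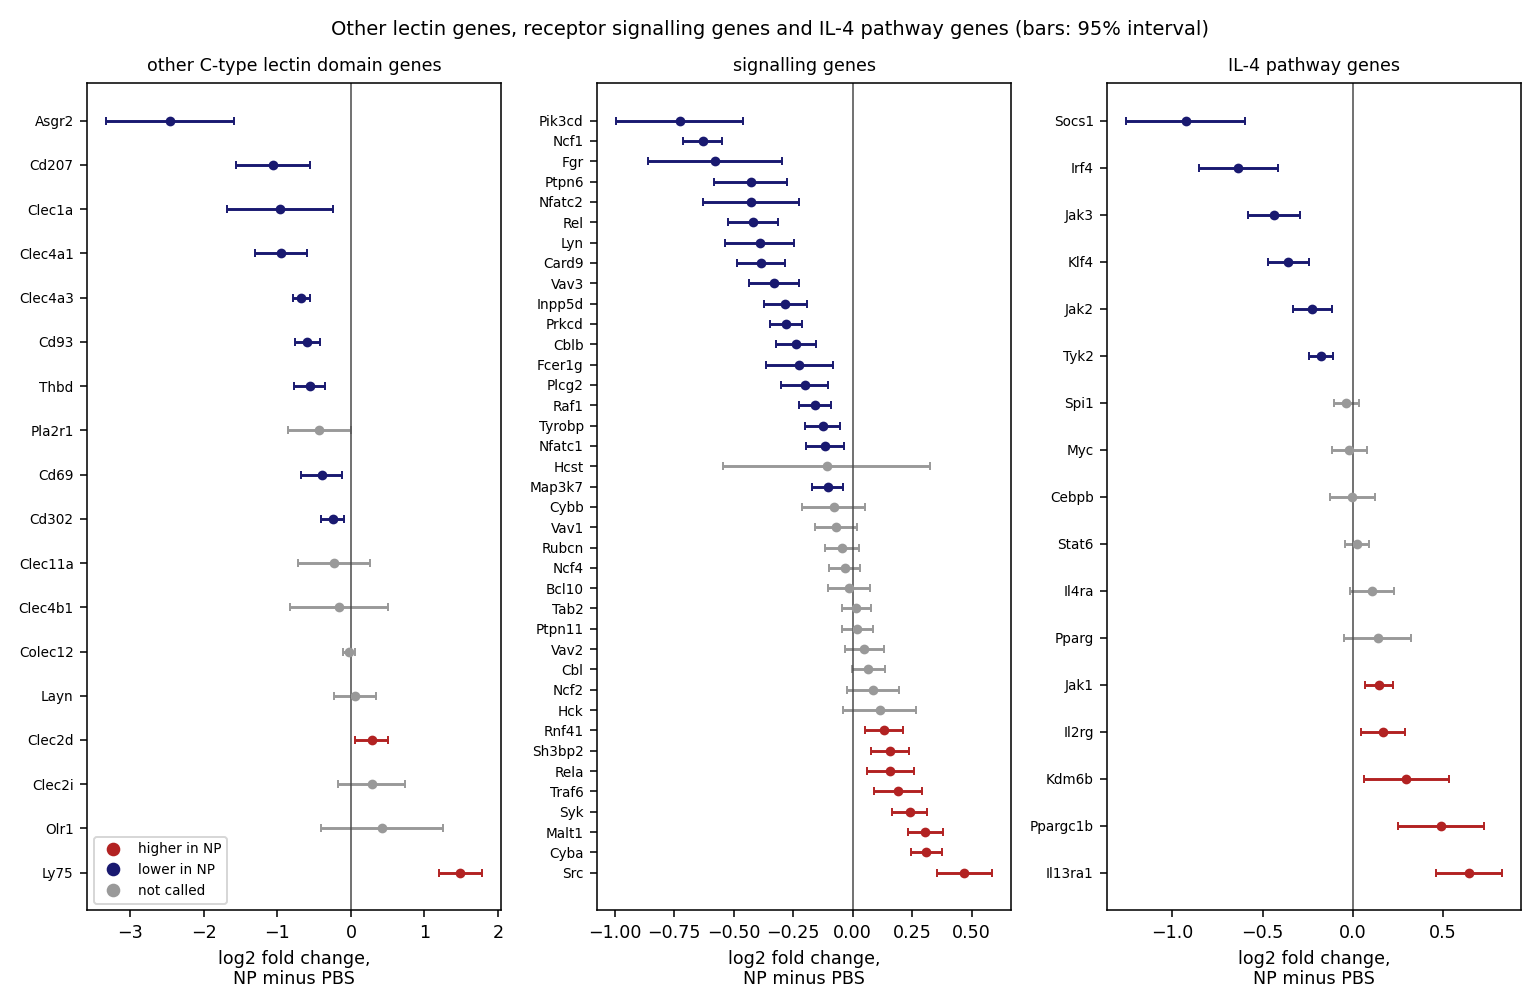
Log2 fold change (NP minus PBS, bars: 95% interval) of the tested genes of the 3 lists: 18 other C-type lectin domain genes, 38 signalling genes and 17 IL-4 receptor pathway genes. Red marks genes higher in NP, dark blue lower and grey not called: 9 lower and 2 higher among the other lectin genes, 18 lower and 8 higher among the signalling genes, and 6 lower and 5 higher in the IL-4 pathway.

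The genes whose levels followed those of the receptor gene with the lowest and of the one with the highest log2 fold change were found by Pearson correlation of log2 CPM over the 6 libraries, among 9583 tested genes of at least 5 CPM. Clec10a was followed most closely by Gas2l1 (0.9988), Gltp (0.9983), Rpl13, Pak4 and Zfp518b (0.998 each). Their own log2 fold changes were small, from -0.12 for Gas2l1 to -0.29 for Pak4, so the likeness is one of pattern and not of size. For Clec4d the closest were Brd7 (0.9977), Tbc1d8 and Myh9 (0.994 each), Acp5 (0.9934) and Prdx1 (0.9933), with log2 fold changes from 0.06 for Brd7 to 0.46 for Prdx1. With only 6 libraries, 3 in each treatment group, such values describe these libraries only.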

How the data were processed

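Per the labels' protocols and the submitters' processing notes, reads were paired and 151 bp long, and the deposited values are expected counts per gene, made with tools that the notes list without their roles: STAR 2.7.8a, RSEM 1.3.3, cutadapt 2.3, FastQC 0.11.8 and MultiQC 1.7, with the build GRCm38. Neither the release of the annotation nor the use of strand is given. The values are whole numbers and unscaled, in 1 table for all 6 libraries. Its layout kept the automatic unit check from reading the columns, so negative binomial count models were not used. The table had 55491 rows, of which 4 reporter rows with 0 counts were left out. Identifiers were matched to GENCODE M21 for coordinates and exonic lengths, which 55227 gene rows had.

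Tests covered 14478 genes, those with 0.171 CPM or more in 3 or more libraries and 15 or more counts over all. They used limma 3.58.1 voom (R 4.3.3), trimmed-mean (TMM) factors and the group as the only term, which leaves 4 residual degrees of freedom. Calls are Benjamini-Hochberg adjusted p under 0.05 over all tested genes. The procedure was tested on simulated data in which every gene had the same small spread, so that test does not cover genes that vary more between libraries. CPM values of genes use TMM-scaled library sizes, and those of olfactory receptor sums and of 3-count limits (0.0432 to 0.0715 CPM) the plain totals; such limits cover counting error only. Ratios of gene pairs within a library were compared by exact permutation. All 10 receptor genes were named whatever their result, and from each other list up to 8 called genes with the smallest p and those at a receptor gene's locus; other names are marked. The receptor genes, lists and markers were chosen with earlier results of these data known, and 1 marker is not reported here. Alternatives were other scalings, filters, sample weights, limma-trend, a replicate block, each library left out, PBS 1 as the only PBS library, and PBS 2 and NP 2 left out together, the last of these chosen after seeing the data, as were all alternatives for the IL-4 list.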

Additional observations from a re-analysis of the deposited data

How the results depend on the processing

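Mrc1, Mgl2, Clec10a, Clec12a and Clec4d kept their direction and call in all 15 alternatives, with log2 fold changes of -1.38 to -1.24, -1.51 to -1.17, -1.78 to -1.35, -0.88 to -0.56 and 0.39 to 0.49. The 10 receptor genes gave 4 to 5 lower calls and 1 higher call throughout. Leaving out 1 library at a time gave -0.33 to -0.22 for Clec4a2 (not called without NP 1 or NP 3), -0.271 to -0.0407 for Clec7a (called without NP 1), -0.0149 (without PBS 3) to 0.0882 for Clec4e, and -0.0946 to 0.00856 (without PBS 2) for Clec5a, with Clec4e and Clec5a never called. Without both PBS 2 and NP 2, Clec7a was at 0.000321. The causes were not tested.

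Counts of calls with 1 library left out ran from 5 to 8 (other lectins, lower), 1 to 2 (other lectins, higher), 3 to 5 (IL-4 pathway, higher) and 1975 to 3850 (all tested genes, lower; 1975 without NP 3). Total count scaling and no filter each gave 1 higher call among other lectins and 3 in the IL-4 pathway. With PBS 1 as the only PBS library, assumed to vary like the others, the counts were 5 lower and 1 higher (other lectins), 5 higher (signalling), 1 higher (IL-4 pathway), and 1775 lower and 1197 higher (all tested genes). No scaling moved the median of all genes by more than 0.0343.

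Same-numbered libraries did not deviate together (r -0.147, -0.252 and -0.231 over 9928 genes), and none correlated best with its own number, so the numbers were not taken as pairs. With a replicate block the receptor genes kept 5 lower calls and 1 higher call, other lectins had 7 lower, and signalling genes 16 lower and 8 higher. The blocked log2 fold change of Mrc1 was -1.315. The 32 lectin genes with too few counts were not tested, and Asgr2 rests on 13 counts over the NP and 58 over the PBS libraries.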
